A study of Mus musculus with 2 samples.

Results

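The glycolysis and hypoxia-response genes are a list of 33 mouse genes, chosen by symbol from the 31053 genes counted in both libraries, and every one of them was found. The list holds 19 glycolytic genes (3 transporters of glucose and lactate, 13 enzymes and 3 regulators), 12 other genes that low oxygen is known to induce, and the 2 hypoxia-inducible factor genes Hif1a and Epas1. The study compared stromal cells from the perivascular adipose tissue of the aorta, the fat that wraps the vessel, in young and old mice. Both groups were wild type and differed in age alone as far as the labels say, there was 1 single-cell library per age, and the tissue had been digested with 0.2% collagenase for 45 min at 37 °C. The labels give neither the ages nor the number of mice behind a library, so age and library cannot be told apart, and no difference below has a replicate check or a test.

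Glycolysis splits glucose into pyruvate in the cytosol, and lactate dehydrogenase turns pyruvate into lactate when mitochondria do not take it up. Cells that lack oxygen stop the prolyl hydroxylases that mark the factor subunits HIF-1α (from Hif1a) and HIF-2α (from Epas1) for decay, and the factors then bind short hypoxia response elements near their target genes. Many glycolytic enzymes are known HIF-1α targets, whereas HIF-2α is known from endothelial and adipose cells, among others.

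The core of a hypoxia response element reads ACGTG or GCGTG. The promoters of 6 members are shown to let the letters be read beside the values that follow: Ddit4, Egln3 and Hk2, which were higher in the old library, Bnip3, whose level was close in both, and Pgk1 and Adm, which had lower values in the old library. They were chosen after the values were seen. Each stretch is RefSeq sequence of GRCm38.p6, 186 bases long, 5′ to 3′ on the gene's strand, from position -250 to position -65 before the annotated start, and no annotated exon of the gene's strand lies in it. Capitals mark the core on either strand, so that CACGT and CACGC stand for cores on the other strand.
Ddit4 (GRCm38.p6, chr10:59951835-59952020, minus strand): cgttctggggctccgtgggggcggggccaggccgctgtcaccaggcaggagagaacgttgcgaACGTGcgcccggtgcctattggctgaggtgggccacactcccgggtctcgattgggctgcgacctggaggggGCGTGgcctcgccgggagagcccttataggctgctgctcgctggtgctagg
Egln3 (GRCm38.p6, chr12:54203939-54204124, minus strand): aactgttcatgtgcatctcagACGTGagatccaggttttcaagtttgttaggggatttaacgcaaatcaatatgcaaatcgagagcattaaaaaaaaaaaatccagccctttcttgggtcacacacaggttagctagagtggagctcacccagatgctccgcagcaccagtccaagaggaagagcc
Hk2 (GRCm38.p6, chr6:82774519-82774704, minus strand): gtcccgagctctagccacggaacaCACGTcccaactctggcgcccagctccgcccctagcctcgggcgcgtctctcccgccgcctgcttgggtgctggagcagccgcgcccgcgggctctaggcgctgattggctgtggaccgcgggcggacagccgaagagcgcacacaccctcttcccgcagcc
Bnip3 (GRCm38.p6, chr7:138909571-138909756, minus strand): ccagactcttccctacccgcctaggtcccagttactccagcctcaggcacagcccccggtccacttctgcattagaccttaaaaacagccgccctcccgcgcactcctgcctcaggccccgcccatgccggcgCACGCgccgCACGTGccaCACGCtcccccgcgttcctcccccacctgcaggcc
Pgk1 (GRCm38.p6, chrX:106186850-106187035, plus strand): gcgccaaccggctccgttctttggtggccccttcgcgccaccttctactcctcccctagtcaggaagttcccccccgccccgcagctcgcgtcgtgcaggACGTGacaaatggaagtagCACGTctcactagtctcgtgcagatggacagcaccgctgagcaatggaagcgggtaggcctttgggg
Adm (GRCm38.p6, chr7:110627407-110627592, plus strand): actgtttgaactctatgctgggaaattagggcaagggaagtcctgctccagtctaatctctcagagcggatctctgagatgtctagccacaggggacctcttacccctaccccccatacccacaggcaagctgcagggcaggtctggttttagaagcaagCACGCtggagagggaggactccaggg

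A core stood in at least 1 of the 250-base windows before the start of 28 of the 30 members that have a promoter entry (93.3%), against 41.5% of all 27025 genes with an entry. Both strands were read and overlapping matches were counted, so CACGTG counts as 2 cores. By entry, 35 of 42 member windows (83.3%) and 12679 of all 32851 windows (38.6%) held a core. The member windows were also richer in CpG, with a median of 14 CpG against 6 in all windows, and 67.3% of the 9646 windows with at least 14 CpG held a core. Those 9646 windows had a median of 22 CpG, so they are not matched to the member windows. The core was found in 11 of 11 members that were higher in old mesenchymal cells, in 15 of 17 that were not past the threshold and in the 1 that was lower. With a core in 28 of 30 members, these counts cannot show whether it goes with the values. A match of 5 letters is a description of the window and not a bound site. Tpi1 and Gpi1 held no core in this window, and Slc2a3, Ndrg1 and Epas1 had no entry.

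Cells were sorted by marker genes, none of which is a member. After filtering, 12755 young and 13711 old cells were kept, with medians of 9180 and 9478 UMIs (unique molecular identifiers, each 1 counted RNA molecule). Mesenchymal cells, which held at least 4 of 10 markers such as Col1a1, Pdgfra and Dcn, made up 91.95% of young and 84.14% of old cells (11728 and 11537 cells). Of these, 297 young and 126 old cells held exactly 4 markers. Over all kept cells, including those of other lineages, 214 young and 274 old cells held 1 marker fewer. Mesothelial (464 and 101 cells) and Schwann cells (158 and 153) were also frequent enough to compare by age, whereas blood endothelial cells (40 and 1344), macrophages (1 and 162) and adipocytes (9 and 124) were described in the old library only, where they passed the minimum of 50 cells. In all, 275 cell barcodes occurred in both libraries, and without them the counts of members in mesenchymal cells given below were the same. Every level below is in CPM, the UMIs of a gene scaled to a common total of UMIs of its gate (counts per 1000000 UMIs), with exact Poisson 95% intervals that cover counting error only. The counts are tags from the 3′ end of the RNA, so levels are compared for 1 gene between cells and not between genes.

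In mesenchymal cells, 14 of the 32 members with at least 20 UMIs (43.8%) had a level in old cells 1.5-fold or more above that in young cells, and 1 (3.12%), Adm, was 1.5-fold or more below it. Over all 15358 genes measured in these cells, 20% were higher and 12.6% were lower by the same rule, and with median-of-ratios scaling 15.5% were higher and 15.5% lower, and 10 members were higher and 1 lower. The median log2(old/young) of the members was 0.37, against 0.13 over all genes measured, and values are to be read against that shift. The members higher in the old library were Epas1, 5 of the other hypoxia genes and 8 of the glycolytic genes. Car9, a carbonic anhydrase, had 8 and 5 UMIs and was not counted.

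**Figure D1:**
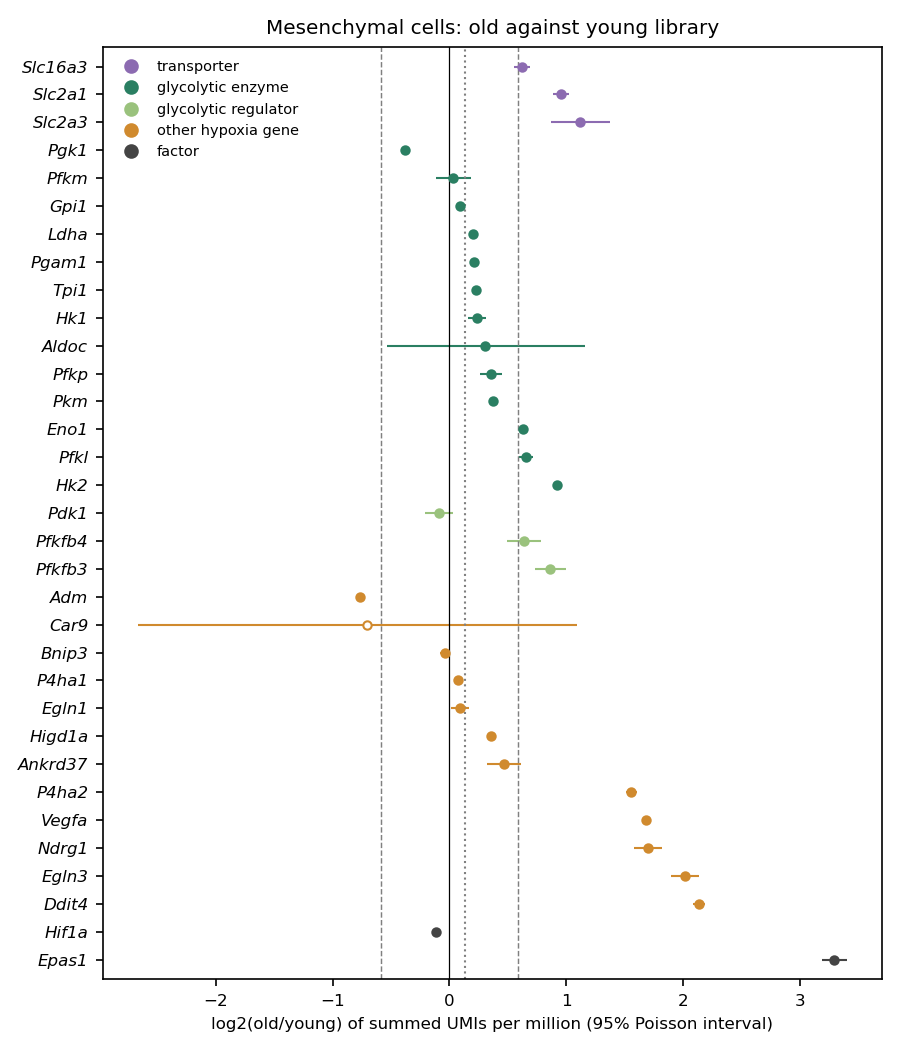
Log2(old/young) of CPM for the 33 members in mesenchymal cells (x axis), grouped by role, with exact 95% Poisson intervals as bars. The dashed lines mark 1.5-fold, the dotted line the median of all genes measured (0.13), and the open point a gene under 20 UMIs. Epas1 lies farthest to the right at 3.29 and Adm farthest to the left among members with at least 20 UMIs at -0.77, while 10 of the 13 enzymes lie between the dashed lines.

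The 2 factor genes differed in their values. Epas1 (ENSMUSG00000024140, GRCm38 chromosome 17, 86753700 to 86833410, plus strand) stood at 6.73 CPM in young mesenchymal cells (814 UMIs, 95% interval 6.28 to 7.21) and at 66.0 CPM in old ones (8133 UMIs, 64.6 to 67.4), a 9.80-fold higher level in the old library. Hif1a (ENSMUSG00000021109, chromosome 12, 73901375 to 73947530, plus strand) stood at 151 CPM in young and 139 CPM in old cells, a log2 ratio of -0.11 with an interval of -0.14 to -0.08. Epas1 thus gave 4.28% of the UMIs of both factor genes in young cells (4.0 to 4.58) and 32.1% in old cells (31.6 to 32.7). A gene annotated as Gm49321 overlaps Hif1a on the same strand, so the counts of both may be mixed. When each cell was thinned to 1000 UMIs, 0.641% of 11707 young and 7.30% of 11523 old mesenchymal cells held an Epas1 UMI, and before thinning 6.24% and 40.4%. In Schwann cells, with medians of 7505 and 5568 UMIs, the thinned shares were 0 of 158 young cells, where 3 cells would be a share of 1.9%, and 1.31% of 153 old cells (2 cells). Before thinning, 2.53% of young and 7.84% of old Schwann cells held an Epas1 UMI. These are shares of cells with a UMI and not of cells that express the gene.

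Endothelial cells, in which HIF-2α is known to be abundant, were far more frequent in the old library. The 10 endothelial markers summed to 16.7 CPM in young and 39.1 CPM in old mesenchymal cells, and the old value was 1.75% of the sum in the endothelial gate (2231 CPM). None of the 10 was at 0 UMIs in either library. Epas1 itself reached 87.5 CPM in old endothelial cells, and its level in old mesenchymal cells was 75.4% of that. The adipocyte markers, by which cells were likewise kept out of the mesenchymal gate, summed to 6.07 and 10.5 CPM in mesenchymal cells. The latter was 0.366% of the sum in the adipocyte gate, a share also partly set by the gating. The part of endothelial or adipocyte RNA in the Epas1 values of mesenchymal cells was not tested.

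The RNA of all 3 transporters of glucose and lactate stood at a higher level in old mesenchymal cells. Slc2a1, the basal glucose transporter GLUT1, stood at 23.7 CPM in young and 45.9 CPM in old cells, a 1.94-fold difference. Slc2a3, the high-affinity transporter GLUT3, was rare, with 1.57 and 3.42 CPM from 190 and 421 UMIs. Slc16a3, the lactate exporter MCT4, stood at 21.9 and 33.7 CPM. Its log2 ratio of 0.62 (0.55 to 0.69) lies close to the threshold of 0.585, and the value falls below it with median-of-ratios scaling at 0.49.

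Of the 13 enzymes, 3 (23.1%) passed 1.5-fold upward in the old library, close to the 20% of all genes, and none was lower. Hk2, the hexokinase that traps glucose in the cell, stood at 119 CPM in young and 225 CPM in old cells, 1.89-fold higher. Pfkl, the liver-type subunit of phosphofructokinase, stood at 31.0 and 48.8 CPM, and Eno1, enolase, at 133 and 205 CPM. Both are near the threshold, with log2 ratios of 0.65 and 0.63 that become 0.52 and 0.50 with median-of-ratios scaling. The other enzymes lay within 1.5-fold of equal. Hk1, the other hexokinase, had a log2 ratio of 0.24, Tpi1 of 0.22, Pgam1 of 0.21, Pfkp of 0.36, Gpi1 of 0.09 and Pfkm of 0.03, the last 2 turning to -0.04 and -0.10 with median-of-ratios scaling.

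The steps nearest to lactate were among the most deeply counted members. Pkm, pyruvate kinase, stood at 439 CPM in young (53111 UMIs) and 569.9 CPM in old cells (70253 UMIs), and Ldha, the lactate dehydrogenase subunit, at 579.9 and 667 CPM. Their log2 ratios of 0.38 and 0.20 were above and near the median shift of 0.13. Pgk1, phosphoglycerate kinase, was the one enzyme whose value was lower in the old library, at 428 CPM in young and 328 CPM in old cells (log2 ratio -0.38, interval -0.40 to -0.37). Aldoc, the brain-type aldolase, had 23 and 29 UMIs only. Many glycolytic enzymes have near-identical pseudogene copies, and Eno1 has the copy Eno1b, so their absolute levels depend on how shared reads were counted, which is not given in the sources used here. Pfkm also overlaps the gene Gm26513 on its own strand.

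The regulators did not all differ alike. Pfkfb3 and Pfkfb4, which set the amount of fructose 2,6-bisphosphate that activates phosphofructokinase, stood at 6.05 and 5.10 CPM in young and at 11.0 and 7.94 CPM in old mesenchymal cells, log2 ratios of 0.86 and 0.64. Pdk1, a kinase that inhibits pyruvate dehydrogenase, stood at 10.2 and 9.58 CPM with a log2 interval of -0.21 to 0.03. Over all 19 glycolytic members, 8 (42.1%) were at least 1.5-fold higher and 0 lower, against 20% and 12.6% of all genes. The median log2 ratio of these members was 0.36, and their summed level 2458 CPM in young and 2913 CPM in old cells. With median-of-ratios scaling 4 glycolytic members were above 1.5-fold, against 15.5% of all genes, and with a 2-fold threshold 1 was, against 9.89% of all genes.

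Among the other hypoxia genes, 5 of 11 measured (45.5%) were at least 1.5-fold higher in old mesenchymal cells, and 1 (9.09%) was lower. Over all genes measured, 20% were higher and 12.6% lower. All 5 were also past 2-fold, against 9.89% of all genes. The median log2 ratio of the other hypoxia genes was 0.47, and their summed level 787 CPM in young and 1135 CPM in old cells. Ddit4 (ENSMUSG00000020108, chromosome 10, 59949669 to 59951834, minus strand), which restrains the growth kinase complex mTORC1, stood at 32.7 CPM in young (3958 UMIs) and 144 CPM in old cells (17749 UMIs), 4.40-fold higher. Its promoter stretch above shows 2 cores. Vegfa (ENSMUSG00000023951, chromosome 17, 46016993 to 46032369, minus strand), the main growth factor for blood vessels, stood at 55.8 and 179.5 CPM, 3.22-fold higher. Ndrg1, a stress-induced gene needed for peripheral myelin, stood at 6.31 and 20.5 CPM.

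The members of each hydroxylase pair differed unequally. Egln3, the oxygen-sensing prolyl hydroxylase PHD3, stood at 5.90 CPM in young and 23.9 CPM in old mesenchymal cells, 4.05-fold higher, whereas Egln1, its relative PHD2, stood at 21.9 and 23.4 CPM. Egln3 gave 21.2% of the UMIs of both genes in young cells (19.8 to 22.6) and 50.5% in old cells (49.3 to 51.8). P4ha2 and P4ha1 encode catalytic subunits of the collagen prolyl 4-hydroxylase that makes the collagen triple helix stable. P4ha2 stood at 40.2 and 118 CPM, 2.94-fold higher, and P4ha1 at 124 and 131 CPM, with a log2 ratio of 0.07 that turned to -0.06 with median-of-ratios scaling. The share of P4ha2 in the UMIs of both was 24.4% in young and 47.5% in old cells. These shares are compared between libraries and are no ratio of the RNAs, since 3′ tags of different genes can be captured unequally.

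Adm (ENSMUSG00000030790, chromosome 7, 110627661 to 110629820, plus strand), the precursor of the vasodilator adrenomedullin and a textbook hypoxia target, differed in the other direction. It stood at 178 CPM in young (21518 UMIs) and 105 CPM in old mesenchymal cells (12895 UMIs), 1.70-fold lower, and its log2 ratio ranged from -0.90 to -0.60 over the 10 settings tried for it. Bnip3, a receptor for the removal of mitochondria, stood at 70.9 and 69.1 CPM, Ankrd37 at 5.54 and 7.67 CPM, and Higd1a, a small protein of the inner mitochondrial membrane, at 245 and 314 CPM. None of these 3 passed 1.5-fold.

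The 64 other genes of the same pathways were counted as a companion list. Of the 56 with at least 20 UMIs, 14 (25%) were at least 1.5-fold higher and 6 (10.7%) lower in old mesenchymal cells, near the shares over all genes. Pdk4, the pyruvate dehydrogenase kinase of fasting, stood at 14.5 CPM in young and 1.22 CPM in old cells, 11.9-fold lower. Edn1, the precursor of endothelin-1, stood at 20.1 and 7.32 CPM and Arnt2, a partner of the HIF factors, at 6.43 and 1.92 CPM. The higher values named by the rule were Stc1, the hormone precursor stanniocalcin 1, at 15.0 and 55.4 CPM, Ndufa4l2, a mitochondrial hypoxia target, at 7.69 and 25.3 CPM, Slc16a1, the lactate carrier MCT1, at 7.74 and 24.99 CPM, and Pgd of the pentose phosphate pathway at 71.7 and 191 CPM.

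Other programs differed between the mesenchymal cells of the 2 libraries as well. The 10 integrated stress response genes, such as Atf4 and Ddit3, summed to 557 CPM in young and 675 CPM in old cells, with 4 at least 1.5-fold higher and 1 lower. The 13 dissociation and immediate early genes, such as Fos and Egr1, summed to 1171 and 2134 CPM, with 7 higher and 1 lower, and their part in the members' differences was not tested. By the same rule, 20% of all genes were higher and 12.6% lower. The median mitochondrial share was 2.62% in young and 2.28% in old mesenchymal cells. For the integrated stress genes, cells thinned to 5000 UMIs were grouped by how many of the 10 were detected. Among cells with 0 to 1 detected (3944 young and 3821 old), the log2(old/young) values were 3.45 for Epas1, 2.24 for Ddit4, 2.08 for Egln3, 1.74 for Vegfa, 1.62 for P4ha2 and -0.60 for Adm. Among cells with 4 or more (1295 and 1704), they were 3.15, 1.79, 2.08, 1.40, 1.6 and -1.10. The grouping does not make the libraries alike in these stress genes: with 0 to 1 detected, Slc7a11 stood at 4.63 CPM in young and 44.4 CPM in old cells and Atf4 at 113 and 137 CPM. The part of integrated stress in the members' differences was not tested.

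**Figure D2:**
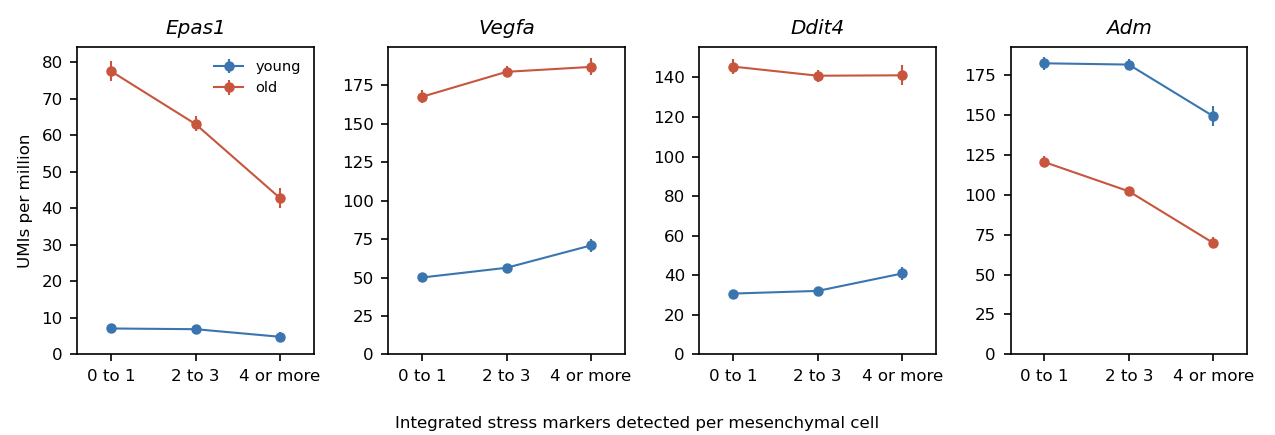
CPM (y axis) of 4 members in mesenchymal cells grouped by the number of integrated stress markers detected (x axis), with 95% Poisson intervals. In every group of cells the old library lies above the young one for Epas1, Vegfa and Ddit4 and below it for Adm. Epas1 in the old library is 77.6 CPM with 0 to 1 markers and 42.9 CPM with 4 or more.

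Within a library, the same grouping separated the members. In old cells Epas1 stood at 77.6, 63.1 and 42.9 CPM with 0 to 1, 2 to 3 and 4 or more stress markers, and Adm at 120.4, 102 and 69.8 CPM. Vegfa stood at 168, 184 and 187 CPM in the same groups, and in young cells at 50.03, 56.4 and 70.9 CPM. Median depths were also higher along the groups, from 9051 to 12118 UMIs in old cells and from 9305.5 to 10491 in young cells. From cell to cell, Pearson's r between the summed glycolytic and the summed other hypoxia members was 0.267 in 10536 young and 0.347 in 10642 old mesenchymal cells, on a log scale of depth-scaled UMIs. Cells of a library share its preparation and their depth enters such values, so they are given as a description.

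The mesenchymal cells were further gated by subtype markers after thinning to 5000 UMIs, which left out 1192 young and 895 old cells as too shallow. Gates for contractile (1014 young and 569 old cells), adventitial progenitor (347 and 1419), adipogenic (678 and 896), matrix (597 and 223) and cycling markers (2068 and 2126) were filled in both libraries, as was the remainder with no subtype (5143 and 4736). A cardiac-type factor gate (85 young and 43 old cells) reached 50 cells in the young library only. Cells that passed several of the gates other than cycling (596 young and 570 old) were left out. The gates are ranges of a marker score and not separate types: for the contractile gate 616 of the 1014 young and 395 of the 569 old cells held just the number of markers required. The differences between the libraries did not rest on 1 of the 6 gates filled in both. Over these 6 gates log2(old/young) ran from 2.32 to 3.56 for Epas1, from 1.82 to 2.23 for Ddit4, from 1.19 to 1.86 for Vegfa, from 1.39 to 2.32 for Egln3, from 1.31 to 2.87 for Ndrg1, from 1.07 to 1.69 for P4ha2 and from 0.71 to 1.11 for Slc2a1. Hk2 ran from 0.57 in contractile to 1.17 in cycling cells. Values below 0 in all 6 gates were seen for Pgk1 (-0.45 to -0.24), Hif1a (-0.53 to -0.01) and Adm (-1.27 to -0.27). For Hif1a the intervals in matrix (-0.33 to 0.04) and cycling cells (-0.07 to 0.05) included 0.

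**Figure D3:**
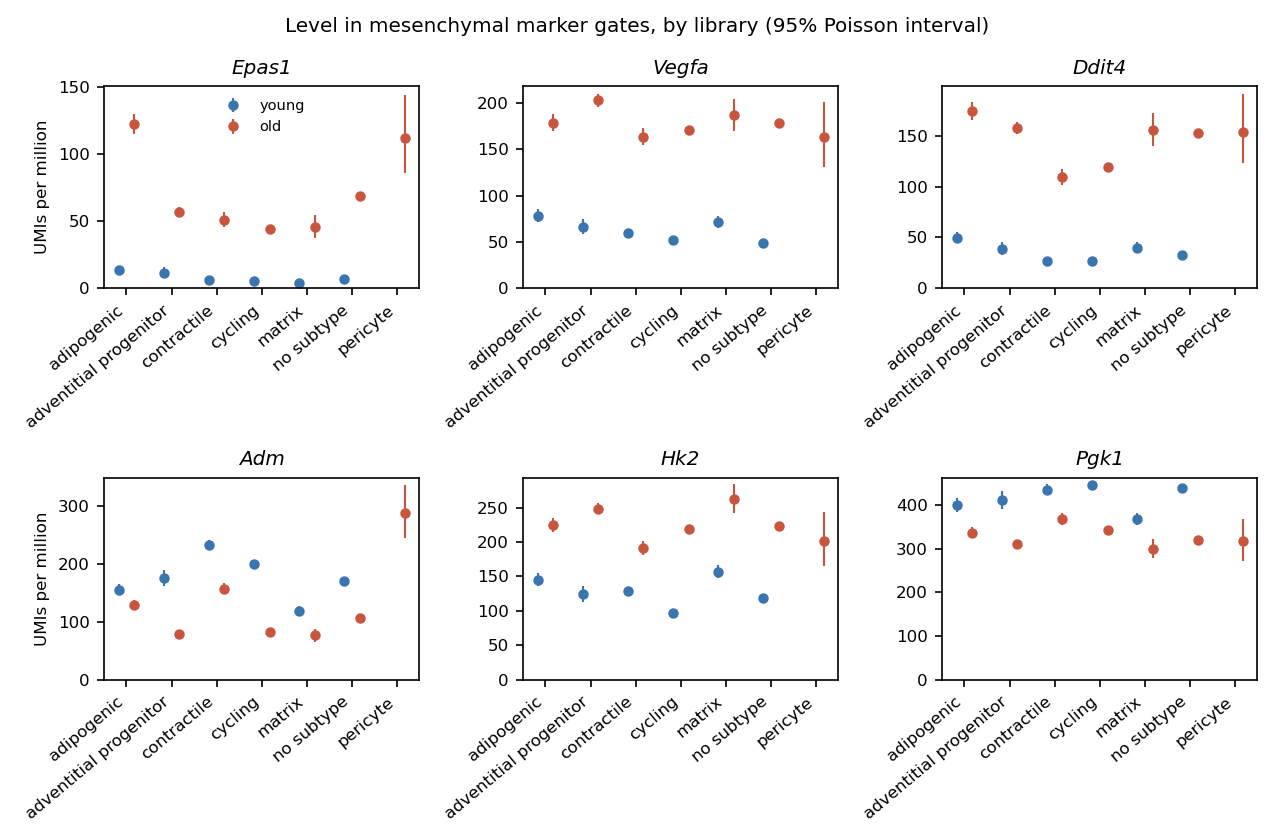
CPM (y axis) of 6 members in 7 mesenchymal marker gates (x axis) for the young and old library, with 95% Poisson intervals. The pericyte gate held 60 old and 8 young cells, so only the old value is drawn. Epas1 in the old library is highest in the adipogenic (122 CPM) and pericyte gates (112 CPM), and Adm is highest in the pericyte gate (288 CPM).

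Levels of Epas1, Adm and some other members spread over the subtype gates. In the old library Epas1 was 122 CPM in adipogenic cells and 112 CPM (61 UMIs) in pericyte-marker cells, then 68.9 CPM in cells with no subtype, 56.5 in adventitial progenitor, 50.8 in contractile, 45.4 in matrix and 43.9 CPM in cycling cells. The first 2 values overlap in their intervals, as do those of the contractile, matrix and cycling gates in part. In the young library the Epas1 level was also higher in adipogenic cells (13.5 CPM) than in cells with no subtype (6.50 CPM). The cardiac-type factor gate held 18 Epas1 UMIs in its 85 young cells. These were 12.0% of the UMIs of both factor genes (7.27 to 18.3), against 5.87% in young adipogenic cells (4.70 to 7.24). Among the 6 gates filled in both libraries, young Adm was highest in contractile cells at 233 CPM and lowest in matrix cells at 119 CPM. In old contractile cells Adm was 157 CPM. Among these 6 gates, Adm differed least between the young and old library in adipogenic cells, at 156 and 129.6 CPM. It differed most in cycling cells, at 199.5 and 83.0 CPM. Over the 6 gates filled in both libraries, the highest level was 3.51 times the lowest for Epas1 and 1.96 times for Adm in the young library, and 2.79 and 2.06 times in the old one. For single enzymes with at least 20 UMIs in every gate, this ratio ran from 1.11 for Pkm to 1.61 for Hk2 in the young library and from 1.12 for Pkm to 1.38 for Hk2 in the old one. For the other members with at least 20 UMIs in every gate, the ratio ran from 1.29 for P4ha1 to 3.51 for Epas1 in the young library. In the old library it ran from 1.17 for Higd1a to 2.79 for Epas1, so the ranges of enzymes and other members overlap. The difference between these spreads was not tested.

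Mesothelial and Schwann cells allowed the same comparison by age at lower depth, with 101 and 153 cells in the smaller libraries. In mesothelial cells, 11 of 30 measured members were at least 1.5-fold higher and 2 lower in the old library, against 14.9% and 14.5% of all genes. In Schwann cells 11 of 26 were higher and 1 lower, against 16.3% and 10.6%. Of the glycolytic members, 3 of 17 in mesothelial and 5 of 15 in Schwann cells were higher, and their summed level was 2112 CPM in young and 2097 in old mesothelial cells, and 2112 and 2029 CPM in Schwann cells. Of the other hypoxia genes, 6 of 11 and 5 of 9 were higher. Dissociation and immediate early genes were higher in the old library in both cell types too, at 723 and 1411 CPM in mesothelial and 1275 and 1992 CPM in Schwann cells, and their part was not tested.

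**Figure D4:**
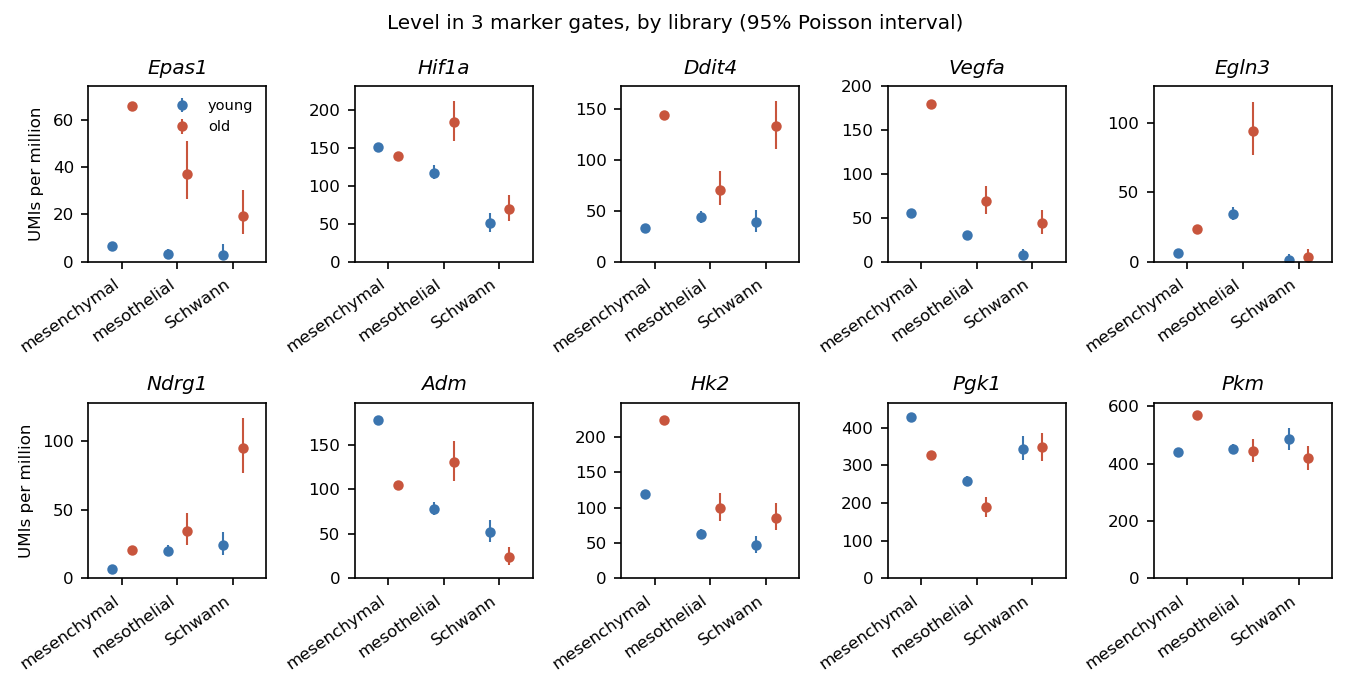
CPM (y axis) of 10 members in mesenchymal, mesothelial and Schwann cells (x axis) of the young and the old library, with exact 95% Poisson intervals. Epas1, Ddit4, Vegfa and Ndrg1 are higher in the old library in all 3 gates, whereas Adm is lower in mesenchymal and Schwann cells and higher in mesothelial cells.

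Epas1 stood at 3.42 CPM in young and 37.3 CPM in old mesothelial cells (19 and 39 UMIs), and at 2.92 and 19.4 CPM in Schwann cells (4 and 19 UMIs). Vegfa stood at 29.8 and 68.8 CPM in mesothelial and at 8.04 and 44.0 CPM in Schwann cells. Ddit4 was 43.5 and 70.7 CPM in mesothelial and 38.7 and 133 CPM in Schwann cells. All 3 genes were higher in the old library in each cell type, and none of the paired intervals overlap. Adm did not keep 1 direction: mesothelial cells held 77.8 and 131 CPM in young and old, and Schwann cells 51.9 and 23.5 CPM. Hif1a, close to equal in mesenchymal cells, stood at 117 and 183.5 CPM in mesothelial cells (log2 ratio 0.65, 0.41 to 0.88). In Schwann cells it stood at 50.4 and 69.5 CPM (0.46, -0.04 to 0.97). Egln3 stood at 34.5 CPM in young and 94.6 CPM in old mesothelial cells, above the 5.90 and 23.9 CPM of mesenchymal cells. Ndrg1 stood at 24.1 CPM in young and 95.05 CPM in old Schwann cells (33 and 93 UMIs), above its level in every other lineage gate with at least 50 cells of the same library, although in the young library its interval overlapped that of mesothelial cells (19.96 CPM). After thinning, 1.31% of old Schwann cells held a Vegfa UMI and 0.654% an Adm UMI (2 cells and 1 cell), against 16.0% and 9.41% of old mesenchymal cells. Before thinning, the shares in old Schwann cells were 20.3% for Vegfa and 8.497% for Adm. Mesenchymal markers still summed to 4054 CPM in old Schwann and 5098 CPM in old mesothelial cells, against 8065 CPM in mesenchymal cells, and the part of mesenchymal RNA in the values of these gates was not tested.

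Cell types present in number in the old library alone were set beside old mesenchymal cells. Here members needed at least 10 UMIs expected in the smaller gate. Mesenchymal markers summed to 2634 CPM in the endothelial, 4799 CPM in the macrophage and 2863 CPM in the adipocyte gate, against 8065 CPM in mesenchymal cells, and the part of mesenchymal RNA in the comparisons with these 3 gates was not tested. In endothelial cells 6 of 31 members were at least 1.5-fold higher and 7 lower, against 12.6% and 23.9% of all genes measured. Endothelial cells held 769 CPM of Pgk1 against 328 CPM in mesenchymal cells, 378 CPM of Adm against 105 CPM, and 68.2 CPM of Ndrg1 against 20.5 CPM. Hk1, Pdk1 and Ankrd37 were also higher. Hk2 was lower in them at 87.4 CPM against 225 CPM, as were Vegfa at 54.0 CPM, P4ha1, P4ha2, Ddit4, Pfkfb4 and Slc2a3. Endothelial cells thus held the higher Pgk1 and Adm and the lower Hk2 and Vegfa, while their Epas1 level of 87.5 CPM was 1.33-fold that of mesenchymal cells. The share of Hk2 in the UMIs of both hexokinases was 64.3% in endothelial and 89.9% in mesenchymal cells of the old library.

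Macrophages were higher than mesenchymal cells in 6 of 29 members and lower in 4, against 8.19% and 18.3% of all genes measured. They held 980.3 CPM of Pkm against 569.9 CPM, 650.5 CPM of Pgk1, 73.4 CPM of Slc16a3 against 33.7 CPM and 32.7 CPM of Pfkfb3 against 11.0 CPM, and Pdk1 and Bnip3 were the other 2. Lower in macrophages were Epas1 at 41.3 CPM, Ddit4, P4ha2 and Pfkfb4. The summed glycolytic members reached 4164 CPM in macrophages and 3552 CPM in endothelial cells, against 2913 CPM in old mesenchymal cells.

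Adipocytes differed in the other direction, with 3 of 26 members higher and 12 lower than in mesenchymal cells, against 12.9% and 25.6% of all genes measured. Epas1 stood at 175 CPM in them, 2.65-fold higher and above every other lineage gate with at least 50 old cells, and gave 54.0% of the UMIs of both factor genes (48.0 to 59.8). Pfkfb3 stood at 71.6 CPM (64 UMIs) and Bnip3 at 156 CPM against 69.1 CPM. Pkm was lower at 274 CPM, Slc16a3 at 11.2 CPM (10 UMIs) and Adm at 40.3 CPM (36 UMIs). The adipocyte gate had a median mitochondrial share of 5.64%, above the 2.28% of mesenchymal cells, and 124 cells, and the part of the mitochondrial share in these values was not tested.

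**Figure D5:**
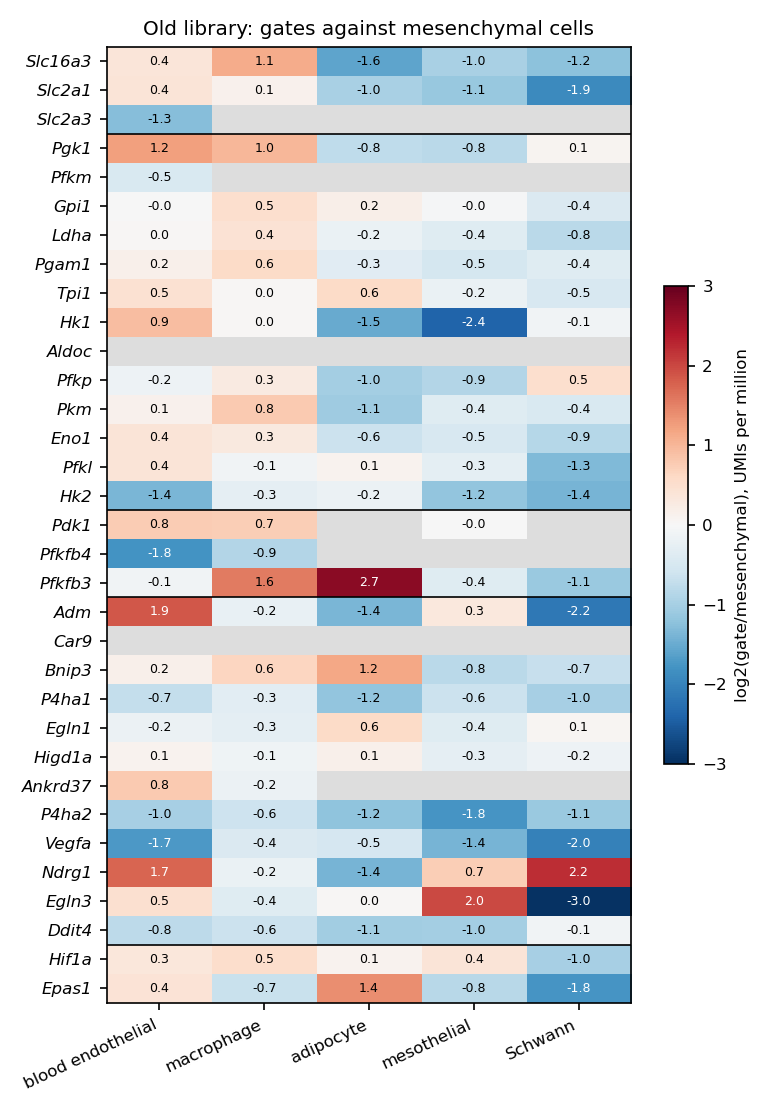
Log2 ratio of CPM in 5 marker gates (columns) to mesenchymal cells of the same, old library, for each member (rows, grouped by role). Red is higher and blue lower than in mesenchymal cells, and grey boxes had fewer than 10 UMIs expected. Endothelial cells stand out by Adm (1.85) and Pgk1 (1.23) and adipocytes by Pfkfb3 (2.70) and Epas1 (1.40).

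Across the 21 sums of cells by gate and library, the genes whose level on a log2(CPM + 1) scale was most like the summed glycolytic members were Degs1 (Pearson's r 0.893), Arrdc4 (0.883), Tslp (0.849), Slfn2 (0.837) and Coro1a (0.829). For the summed other hypoxia members they were Htra4 (0.926), Hoxb6 (0.921), Hoxa7 (0.919), Birc3 (0.908) and Mgat5 (0.904). Among the members themselves, Pgam1 (0.935) and Ldha (0.918) followed the glycolytic sum most closely and Slc2a3 (-0.245) least. Vegfa (0.893) and P4ha2 (0.799) followed the hypoxia sum, while Adm (0.301) and Ndrg1 (0.237) did so little. The gates share 2 libraries and members are part of their own sums, so these values describe the pattern and are not a test.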

How the data were processed

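The authors deposited unnormalized UMI counts per gene and cell barcode, 1 matrix per age. They were written by Cell Ranger 3.0.1 per the file headers, on mm10 per the submitters' processing notes, from Chromium 3′ v2 libraries per the labels' protocols. The rule by which the authors kept barcodes is not given in the sources used here. In all there were 13104 young barcodes with 130398999 UMIs and 14636 old ones with 147166475.

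Barcodes needed 500 detected genes and a mitochondrial share of UMIs up to 10%, a limit that 1.83% of young and 5.78% of old barcodes exceeded. A cell with 3 or more markers of 1 non-mesenchymal lineage went to that lineage, and 5 young and 48 old cells with several lineages were left out as possibly mixed. No doublet caller was run. An alternative left out the 10% of cells with the most UMIs. Subtype gates used cells thinned to 5000 UMIs and needed 3 pericyte, 6 contractile, 3 adventitial progenitor, 4 adipogenic, 4 matrix, 3 cardiac-type factor or 4 cycling markers.

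UMIs were summed per library and gate and scaled to CPM. Ratios carry exact conditional Poisson and shares Clopper-Pearson 95% intervals, which cover counting error only. The call rule was 1.5-fold with at least 20 summed UMIs. The ratio step was tested on simulated counts. The members, lists and limits were chosen with earlier results of these data known, and no p-value is given. All 33 members could be named. Of the other pathway genes, the 8 largest absolute log2 ratios with at least 100 UMIs were to be named, of which 1 is not reported here, and of genes with a like pattern the 5 with the highest r among those with at least 10 CPM in a gate. Coordinates are 1-based, from GENCODE vM21 on GRCm38. Promoters are RefSeq sequence. Python 3.11.15, numpy 2.4.6, scipy 1.17.1, pandas 2.3.3 and matplotlib 3.10.9 were used.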

Additional observations from a re-analysis of the deposited data

Results flagged for a closer look

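Adm was flagged because its log2(old/young) has opposite signs in different cell types. It was -0.77 in mesenchymal cells and -1.14 in Schwann cells (71 young and 23 old UMIs) but 0.75 in mesothelial cells (433 and 137 UMIs). The difference between the cell types was not tested, since each rests on 1 library per age.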

How the results depend on the processing

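The 4 counts for mesenchymal cells (members higher, members lower, glycolytic members higher and other hypoxia members higher in the old library) were recomputed under 13 settings, and 47 of the 52 values stayed within 1.5 times the value reported. With median-of-ratios scaling, which moves every log2 ratio down by 0.13, the glycolytic count was 4 in place of 8, against 15.5% of all genes. With a 2-fold threshold 7 members were higher and 0 lower, with 1 glycolytic member among the former, against 9.89% and 6.73% of all genes. Without a minimum of UMIs 2 members were lower, the second being Car9, against 14.9% of all genes. Over 10 settings for each member, and 9 for Car9, which was too rare in cells with 0 to 1 stress markers, 27 of the 33 kept their direction in every setting that gave a value. Gpi1, Pfkm, Egln1 and P4ha1 changed sign with median-of-ratios scaling, and Aldoc and Bnip3 in cells with 0 to 1 stress markers, a setting chosen after seeing the data. None of these 6 was past 1.5-fold. Car9 alone moved by more than 1.5 times. No paired analysis was possible because each age has 1 library. The same limit means that no replicate could be left out, and that differences by age, by mouse and by preparation cannot be told apart. The smaller gates rest on few UMIs for rare members.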
